A study of Mus musculus with 2 samples.

Results

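AGRP neurons of the arcuate nucleus (ARC) were taken here as 672 of 4395 ARC-side nuclei, or 15.3% (exact binomial 95% interval 14.2 to 16.4), in a single-nucleus RNA sequencing library of mouse hypothalamus. A nucleus was a member when it held at least 1 unique molecular identifier (UMI, a tag that stands for 1 captured RNA molecule) in 4 or more of 8 genes: Corin, Filip1, Acvr1c, Csgalnact1, Ghr, Npffr2, L3mbtl4 and Htr1f. Neither Agrp nor Npy was used to choose them. The other 3723 ARC-side nuclei served for comparison.

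The study micro-dissected the ARC of 6 male wild-type C57BL/6J mice aged 10 to 12 weeks, sorted nuclei for the neuronal nuclear protein NeuN and sequenced them as 1 pooled 10x Genomics library, with a second library for hashtags, which are antibodies with a DNA barcode that mark the preparation a nucleus came from. The hashtags are labelled ARC and PVH (paraventricular hypothalamus), and nuclei cannot be assigned to mice, so the library is 1 sample without replicates and no test was made across nuclei. No treatment or genotype was compared, and the labels name no transgene.

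AGRP neurons lie at the base of the hypothalamus, beside the median eminence, and drive hunger. They release agouti-related protein (AGRP), which blocks melanocortin receptors, neuropeptide Y (NPY), which acts on Y receptors, and the inhibitory transmitter GABA. Leptin from fat tissue restrains them through the leptin receptor (Lepr), while the gut hormone ghrelin excites them, and the neighbouring POMC neurons oppose them by releasing a melanocortin agonist.

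Of 11409 barcodes in the deposited matrix, 10170 met the limits of the study: over 800 genes but under 5000, no more than 12000 UMIs, and a mitochondrial share of 1% or less. Nuclei were called ARC-side when their ARC hashtag count was at least 0.8 times their PVH hashtag count, which left 5775 on the PVH side. The hashtags separated poorly: the median AGRP nucleus carried 97 ARC and 78 PVH hashtag UMIs, and the median of the other ARC-side nuclei was 93 and 76. AGRP nuclei held 3942011 UMIs in all, with 1389 to 11961 per nucleus and a median of 5272.5, against a median of 4709 in the other ARC-side nuclei. The rule asks for several detected genes, so deeper nuclei pass it more easily. Levels are given as CPM, the summed UMIs of a gene per 1000000 summed UMIs of all genes, with exact Poisson 95% intervals in brackets. Ratios carry 95% intervals from exact binomial limits on the split of UMIs between the groups, and all intervals cover counting error only, not the spread between mice.

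The 8 genes that chose the members are a description and not a result. Corin, a serine protease, stood at 151 CPM in AGRP nuclei and 16.6 in the others, and was seen in 53.3% of AGRP nuclei. Ghr, the growth hormone receptor, stood at 1217 against 259 CPM and was seen in 99.3% of AGRP nuclei against 43.1% of the others, so it set few nuclei apart alone. Acvr1c, an activin receptor of the TGF-beta family, stood at 156 against 19.1 CPM. Npffr2, a receptor for neuropeptide FF, stood at 88.3 against 13.3, and Htr1f, a serotonin receptor, at 186 against 31.2. Filip1 was at 295 against 33.8 CPM, Csgalnact1, which starts chondroitin sulfate chains, at 370 against 62.8, and L3mbtl4 at 126 against 20.4.

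Of the 672 nuclei, 272 held exactly 4 of the 8 genes, 209 held 5, 140 held 6, 42 held 7 and 9 held all 8. Just outside the threshold lay 372 nuclei with 3. Across the threshold Corin stood at 108 CPM in the nuclei with 4 and 51.7 in those with 3, and Ghr at 1063 and 683. When each gene was left out in turn and nuclei were chosen by at least 4 of the remaining 7, the omitted gene was between 3.83-fold (Htr1f) and 5.46-fold (Acvr1c) higher in the chosen nuclei than in the others. The nuclei chosen this way were all members, and the 8 genes were set with earlier results of these data known. These folds are therefore also a description, and deeper nuclei hold more of any gene.

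Agrp and Npy, the defining peptides, were not part of the rule and were both higher in AGRP nuclei. Agrp (chromosome 8, 105566698 to 105637393, minus strand, in GRCm38/mm10) stood at 278 CPM (262 to 295), against 155 in the other ARC-side nuclei (149.8 to 161), a ratio of 1.79 (1.67 to 1.92). A single AGRP nucleus held from 0 to 11 Agrp UMIs with a median of 1, and the other nuclei 0 to 7 with a median of 0. The annotated span of Agrp overlaps other genes, Ctcf on the opposite strand among them, and reads shared with those could not be separated here.

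Npy (chromosome 6, 49822710 to 49829507, plus strand) stood at 252 CPM (237 to 268) against 91.8 (87.5 to 96.3), a ratio of 2.75 (2.54 to 2.97). Its UMIs ran from 0 to 10 per AGRP nucleus with a median of 1, and from 0 to 8 in the others with a median of 0. Npy thus differed by more than Agrp between the same nuclei, and the ranges of single nuclei overlapped for both.

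Both peptides were also found widely outside the AGRP nuclei. PVH-side nuclei with fewer than 4 rule genes, taken as a reference, gave Agrp at 163 CPM (158 to 168) and Npy at 94.3 (90.6 to 98.0). Single nuclei among them held up to 10 Agrp and 16 Npy UMIs. The other ARC-side nuclei lay at or just under those levels. Agrp was detected in 73.5% of AGRP nuclei, 49.9% of the other ARC-side nuclei and 52.0% of these PVH-side nuclei, whose median depths were 5272.5, 4709 and 4592 UMIs. For Npy the shares were 68.6%, 34.7% and 33.7%. The shares in the other ARC-side nuclei did not exceed the PVH-side share by more than 1 percentage point. Whether these UMIs came from free RNA or from expression was not tested. The poor separation of the hashtags means that some PVH-side nuclei may come from the ARC.

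Depth was matched by thinning each nucleus to 1000 UMIs, which kept all 672 and all 3723 ARC-side nuclei and 5582 of 5587 PVH-side nuclei. Agrp was then seen in 21.4% of AGRP nuclei, 15.3% of the others and 15.9% on the PVH side. Npy was seen in 22.5%, 8.68% and 9.76%, so both remained more frequent in AGRP nuclei at equal depth, and Npy by the wider margin.

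Seen jointly, 51.3% of AGRP nuclei held a UMI of both Agrp and Npy, 22.2% of Agrp alone, 17.3% of Npy alone and 9.23% of neither. Among the other ARC-side nuclei 17.6% held both and 33.1% neither, close to 18.8% and 33.1% on the PVH side. The summed UMIs of Agrp divided by those of Npy gave 1.10 (1.01 to 1.202) in AGRP nuclei, 1.69 (1.59 to 1.80) in the other ARC-side nuclei and 1.73 (1.64 to 1.81) on the PVH side. The proportion of the peptides was thus alike in ARC-side and PVH-side nuclei outside the rule and different in AGRP nuclei.

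By the number of rule genes in a nucleus, Agrp and Npy were near the PVH-side level up to 3 and above it from 4 on. On the ARC side, nuclei with 0, 1, 2 and 3 rule genes had Agrp at 157, 155, 149 and 168 CPM, a flat course at the level of the PVH side. Nuclei with 4, 5, 6, 7 and 8 had 249, 294, 291, 298 and 414 CPM, the last from 9 nuclei. Npy ran at 96.9, 82.3, 90.7 and 113 CPM up to 3 rule genes and at 211, 257, 276, 341 and 466 CPM from 4 to 8. The step at the threshold was from 168 to 249 CPM for Agrp and from 113 to 211 for Npy.

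**Figure D1:**
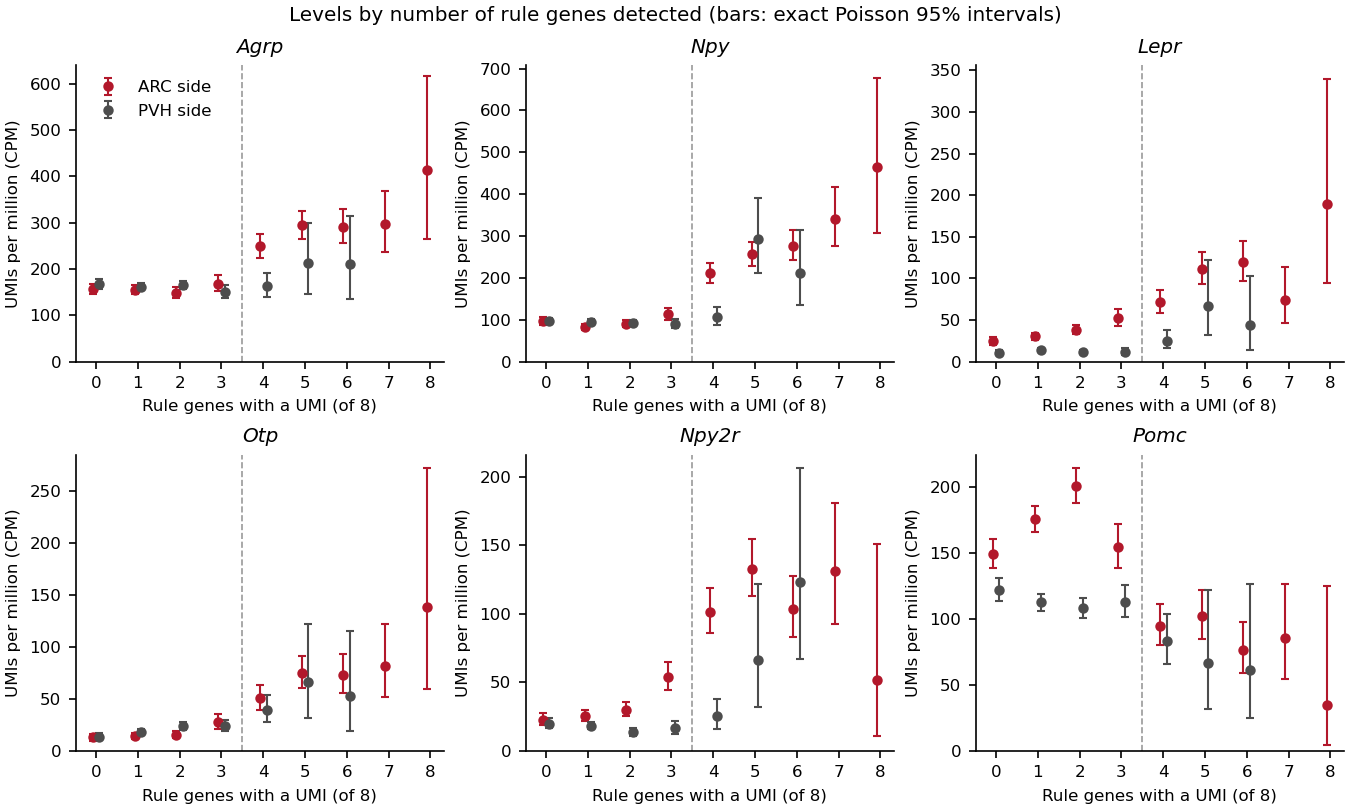
CPM (vertical axis, each panel from 0) of 6 genes that were not used to choose nuclei, by the number of the 8 rule genes with a UMI (horizontal axis), for ARC-side nuclei in red and PVH-side nuclei in grey, with exact Poisson 95% intervals as bars and the threshold as a dashed line. Agrp in ARC-side nuclei lies between 149 and 168 CPM up to 3 rule genes and between 249 and 414 from 4 on.

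The label was checked against an unsupervised grouping. Leiden clustering of the ARC-side nuclei gave 15 clusters, and cluster 2, with 677 nuclei, passed all 6 of the AGRP markers Agrp, Npy, Corin, Acvr1c, Npffr2 and Htr1f, so it was called AGRP-like. It held 516 members, which were 76.8% of the members and 76.2% of the cluster. A further 66 members lay in cluster 14, and 90 were spread over the other 13 clusters with 1 to 22 in each. Clusters were built from all genes, the rule genes included, so levels by cluster are a description.

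The 90 members outside clusters 2 and 14 did not carry the peptide levels of the rest. Agrp stood at 306 CPM (286 to 327) in the members of cluster 2, 247 (207 to 292) in those of cluster 14 and 186 (154 to 222) in the other 90. Npy stood at 303 (283 to 325), 187 (153 to 227) and 93.0 (71.1 to 119). In those 90 nuclei Npy was at the level of nuclei outside the rule, the quotient of Agrp to Npy UMIs was 2.00 (1.46 to 2.77), and Slc17a6, a marker of glutamate neurons, was at 54.9 CPM against 12.4 in the members of cluster 2. The name AGRP therefore did not hold for them by their peptides. Their median depth was 6893.5 UMIs, against 5006 in the members of cluster 2.

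Conversely, 161 nuclei of cluster 2 held fewer than 4 rule genes and had Agrp at 264 CPM (228 to 303), Npy at 270.4 (234 to 311) and Lepr at 123 (98.8 to 151). These nuclei, with a median of 4574 UMIs, were shallower than the members of the same cluster and carried near the same peptide levels. Agrp over Npy was 0.975 (0.795 to 1.19) in them and 1.01 (0.915 to 1.11) in the members of cluster 2.

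Cluster 14 was left unnamed. Its 119 nuclei had a median of 7265 UMIs and were led by glial genes, Slc1a3 first. The cluster passed 4 of 6 AGRP markers, 4 of 6 astrocyte markers and 5 of 6 tanycyte markers. Slc1a3, an astrocyte glutamate transporter, stood at 411 CPM in its 53 nuclei outside the rule and at 1.82 in its 66 members. Of the 66 members 28.8% were called doublets of both hashtags by HTODemux, against 3.29% of the members in cluster 2 and 15.6% of the 90 elsewhere. Their median depth was 8421.5 UMIs. No doublet caller was run on the RNA, and doublets of nuclei with the same hashtag would not be seen. Whether doublets account for members outside cluster 2 was not tested.

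**Figure D2:**
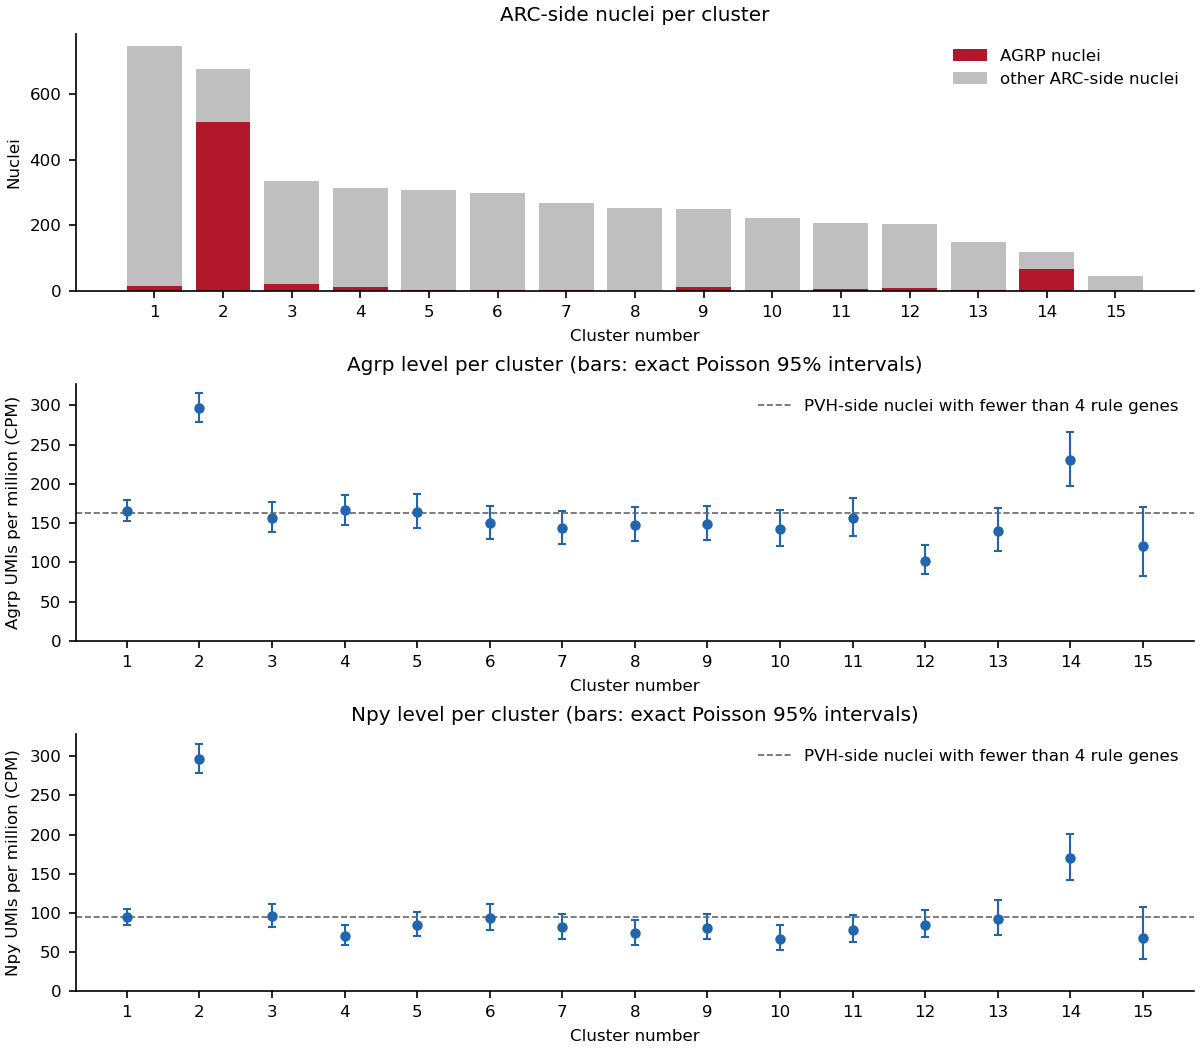
Number of AGRP nuclei in each of the 15 clusters of ARC-side nuclei, and the CPM of Agrp and Npy in each cluster with exact Poisson 95% intervals, where the dashed line is the level in PVH-side nuclei with fewer than 4 rule genes. Cluster 2 holds 516 of the 672 AGRP nuclei and stands at 297 CPM for Agrp and 296 for Npy, and clusters other than 2 and 14 lie between 102 and 166 CPM for Agrp and between 66.8 and 95.5 for Npy.

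Summed markers of other cells were mostly lower in AGRP nuclei than in the others. The 6 astrocyte markers summed to 6.09 CPM against 15.1 in the other ARC-side nuclei, with Gja1 at 0 and Agt at 1.78 against 1.03. Of these, Slc1a3 alone had enough UMIs to be compared, at a log2 ratio of -1.84, or -0.22 without cluster 14. The 5 markers of oligodendrocyte precursors summed to 3.81 against 11.5, with Cspg4 at 0. The 6 tanycyte markers summed to 43.6 against 57.1 CPM, mostly from Col23a1, the 5 oligodendrocyte markers to 82.2 against 115, the 5 microglia markers to 136 against 137, and the 6 endothelial and mural markers to 10.4 against 9.76, with Cldn5 and Rgs5 at 0. Markers of other neurons summed to 239 against 354 CPM for POMC, 99.2 against 196 for KNDy (kisspeptin, neurokinin B and dynorphin) neurons with Kiss1 at 0, 48.7 against 111 for dopaminergic neurons, 19.3 against 31.7 for the ventromedial hypothalamus and 14.7 against 25.8 for GHRH and cholinergic neurons. The 4 BNC2 neuron markers summed to 22.3 against 39.8. The 5 PVH markers summed to 807 against 956 CPM and to 1242 on the PVH side, nearly all of it Oxt and Avp, and Sim1, which defines PVH neurons, was at 6.6 against 14.7. Besides the endothelial and mural list, the 3 somatostatin neuron markers summed to more in AGRP nuclei, 261 against 139 CPM, and of these Otp and Npy2r were higher and Sst itself was at 81.9 against 94.1.

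The general neuronal genes were present at unequal levels. Snap25, part of the vesicle fusion machinery, was at 661 against 703 CPM, and Tubb3 at 144 against 149. The vesicle calcium sensor Syt1 was at 525 against 1132 CPM, and Rbfox3, which encodes NeuN, at 126 against 263, ratios of 0.464 (0.443 to 0.485) and 0.480 (0.437 to 0.527). Within the AGRP nuclei Syt1 stood at 350.2 CPM in the members of cluster 2 and at 1069 in the 90 members outside clusters 2 and 14. Nuclei were sorted for NeuN, and what the sort did to the count of AGRP nuclei was not tested.

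Across the genome, 12477 genes other than the rule genes were compared, namely those of which an even spread would put at least 20 UMIs in the AGRP nuclei. At least 2-fold higher were 181 genes, 1.45% of those compared, and at most 0.5 times the level of the others were 493, or 3.95%. In what follows "higher" and "lower" mean past these folds. The shares given for each gene list below stand beside these 1.45% and 3.95% of all genes compared. The whole counting interval lay above 2-fold for 110 of the 181 and under 0.5 for 220 of the 493. The median log2 ratio over all genes compared was -0.00124. The filter counted the UMIs of both groups together, so a sparse gene could enter through the group where it was higher. With the nuclei of cluster 14 left out of both sides, 180 of the 181 and 471 of the 493 stayed past the fold.

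**Figure D3:**
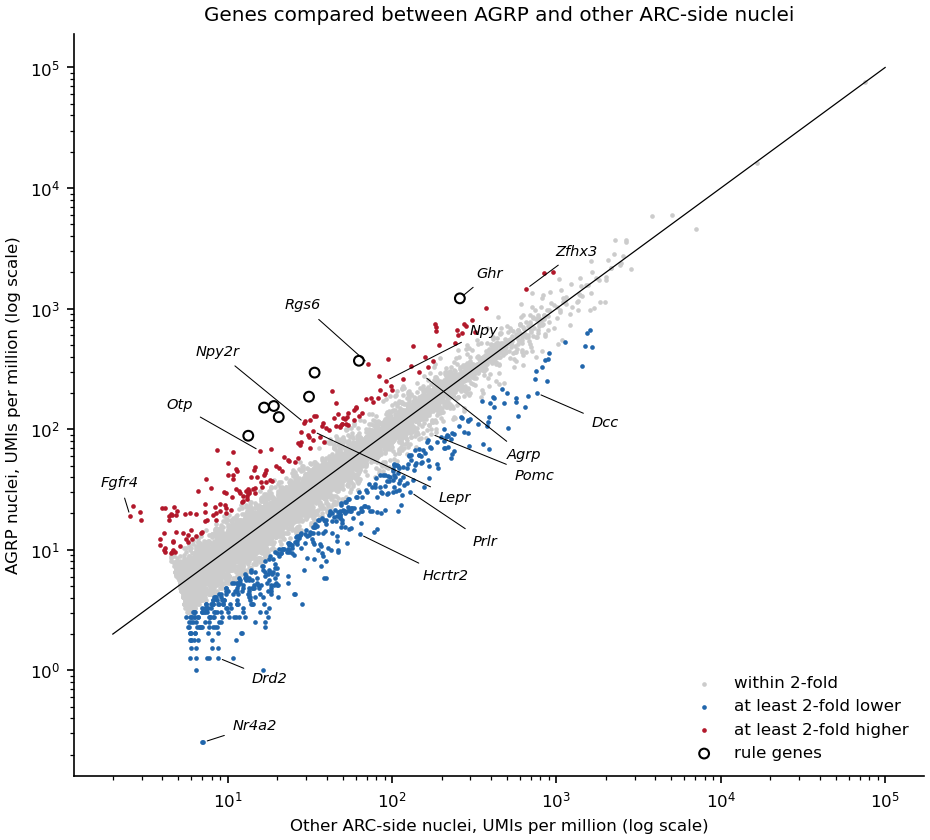
Each point is 1 of the genes compared, with its CPM in the other ARC-side nuclei (horizontal, log scale) and in AGRP nuclei (vertical, log scale), and the line marks equal levels. The 181 higher genes (red) and 493 lower genes (blue) lie past 2-fold, and the 8 rule genes are open circles.

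Among the genes with the highest ratios, Gm50423, a noncoding RNA gene on chromosome 18 (81083064 to 81098084), led with 8.69-fold. It had enough UMIs to be compared in 9 of 13 alternative settings, with ratios from 4.89 to 13.5 over all 13. Gm20647 followed at 7.82-fold and Gm13544 at 7.02-fold, but these are antisense to the rule genes Corin and Acvr1c and could not be told apart from them as choices of the rule. Fgfr4 (chromosome 13, 55152640 to 55168759), a receptor for fibroblast growth factors, stood at 19.0 CPM (15.0 to 23.8) against 2.55, a ratio of 7.47 (5.12 to 11.0), and was seen in 6.70% of AGRP nuclei and 0.833% of the others. It had 75 UMIs in AGRP nuclei and 47 in the others, and enough to be compared in 5 of 13 alternative settings. Being compared already depended on the UMIs of the AGRP nuclei, for Fgfr4 and for the other sparse genes named here. Over all 13 settings the ratio of Fgfr4 ran from 3.89 to 29.3. Its level was 25.96 CPM in the members of cluster 2 and 1.82 in those of cluster 14. Fli1, an ETS family transcription factor, stood at 64.9 CPM (57.2 to 73.4) against 10.8, a ratio of 5.99 (4.96 to 7.24).

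Rgs6, which shortens signals of inhibitory G proteins, was among the more abundant of these at 349.8 CPM (332 to 369) against 71.7, a ratio of 4.88 (4.52 to 5.27), and was seen in 53.3% of AGRP nuclei. Dock1, an activator of the GTPase Rac, stood at 209 against 43.2 CPM (4.85-fold). The collagen gene Col19a1 stood at 52.3 against 9.98 CPM (5.24-fold), the metalloprotease Tll1 at 38.6 against 7.37 (5.23-fold) and the protease Adamts9 at 42.1 against 10.1 (4.18-fold). The small GTPase Rasl11b was 5.64-fold and Crispld1 5.29-fold higher. Each had enough UMIs to be compared in 9 of 13 settings. Over all 13 their ratios ran from 4.63 to 21.1 and from 2.26 to 9.53. Also among the 20 highest were 4930500H12Rik, Gm44127, Vwa5a, Ptpn18, Arhgef26, Tnfaip8l3 and Slc38a11, between 4.22-fold and 5.87-fold. They had enough UMIs in between 6 (4930500H12Rik) and 12 (Vwa5a) of the 13 settings.

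At the lower end, Nr4a2, an orphan nuclear receptor found in other hypothalamic neurons, gave 1 UMI in all AGRP nuclei and 131 in the others, a ratio of 0.0357 with a counting interval of 0.000897 to 0.203. Drd2, the inhibitory dopamine receptor, gave 5 UMIs against 162 (0.144, interval 0.0463 to 0.344). Vgll3, a cofactor of TEAD transcription factors, was at 3.55 against 28.4 CPM (0.125) and Rab37 at 1.27 against 10.8 (0.117). Mbnl3 was at 0.135 and the protein kinase Prkcq at 0.159 of the level of the others, and the remaining 6 of the 12 lowest were predicted or uncharacterised genes between 0.0357 and 0.16.

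Receptors for metabolic hormones differed in both directions. Of 14 compared, 2 were higher (14.3%), Lepr and Calcr, and 3 were lower (21.4%), Prlr, Glp1r and Igf1r, with a median log2 ratio of -0.15. Lepr (chromosome 4, 101717404 to 101815352, plus strand) stood at 95.9 CPM (86.5 to 106) in AGRP nuclei, 33.2 (30.7 to 36.0) in the other ARC-side nuclei and 12.0 (10.8 to 13.4) on the PVH side. The ratio was 2.89 (2.53 to 3.29). A UMI of Lepr was found in 41.7% of AGRP nuclei against 10.6% of the others and 4.53% on the PVH side, and after thinning to 1000 UMIs in 8.18%, 2.20% and 1.18%. Lepr thus differed from Agrp and Npy in that its level in the other ARC-side nuclei was above the PVH side.

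Within the AGRP nuclei Lepr stood at 117 CPM in the members of cluster 2, 67.2 in those of cluster 14 and 33.5 in the 90 elsewhere, the last at the level of the other ARC-side nuclei. Calcr, the calcitonin receptor, through which amylin and calcitonin act, stood at 95.4 CPM (86.0 to 106) against 28.0, a ratio of 3.41 (2.98 to 3.90), and was at 107, 78.1 and 61.0 CPM in the same groups. The insulin receptor Insr was at 85.5 against 92.4 CPM, within counting error of equal (0.925, interval 0.820 to 1.04), and Acvr2a, an activin receptor, was at 97.7 against 84.2.

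The prolactin receptor Prlr stood at 30.2 CPM (25.0 to 36.1) against 129 (0.234), and its UMIs in AGRP nuclei were unevenly placed, with 14.6 CPM in the members of cluster 2 and 94.5 in the 90 elsewhere. Igf1r, the receptor of insulin-like growth factor, was at 37.8 against 101 CPM (0.373). Glp1r, the target of incretin drugs, gave 7 UMIs, 1.78 against 7.97 CPM (0.223, interval 0.0880 to 0.471).

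The ghrelin receptor Ghsr and the melanocortin receptors were too sparse to compare. Ghsr gave 12 UMIs, 3.04 CPM (1.57 to 5.32) against 1.14 in the other ARC-side nuclei and 0.407 on the PVH side, and all 12 were in members of cluster 2. Mc3r gave 11 UMIs and Mc4r 3 in AGRP nuclei.

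Genes that carry signals from the leptin, growth hormone and insulin receptors had a median log2 ratio of 0.17. Of 21 compared, 5 were higher (23.8%, against 1.45% of all genes compared) and 1 was lower (4.76%, against 3.95%). Stat3, the transcription factor that leptin activates, stood at 169 CPM (156 to 182) against 76.7 (2.20-fold). Socs2, a feedback inhibitor induced by growth hormone, stood at 99.2 against 41.4 (2.39-fold), and Irs4, an insulin receptor substrate of the hypothalamus, at 47.9 against 20.7 (2.32-fold). Foxo1, which insulin and leptin signalling keep out of the nucleus, stood at 54.3 against 23.6 CPM (2.30-fold), and the adaptor Gab1 at 44.6 against 21.3 (2.10-fold). The lower gene was Pik3r1, the regulatory subunit of PI3 kinase, at 21.1 against 56.6 CPM (0.372). Socs3 and Cish, inhibitors induced by the same receptors, were too low to compare and are named after their values were seen, at 9.39 against 3.36 CPM and 6.6 against 2.6. Jak2, the kinase bound to Lepr and Ghr, was at 49.5 against 51.0 CPM.

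Of 15 nuclear receptors compared, 1 was higher (6.67%) and 6 were lower (40%), with a median log2 ratio of -0.25. Without cluster 14, 2 were higher and 7 lower. Nr3c2, the mineralocorticoid receptor, stood at 297 against 145 CPM (2.05-fold, interval 1.91 to 2.19). Lower were Nr4a2 and Nr4a1, the thyroid hormone receptor Thrb at 57.8 against 227 CPM (0.255), the estrogen receptor Esr1 at 38.1 against 133 (0.286), Rorb at 51.5 against 125 (0.411) and the progesterone receptor Pgr at 35.01 against 78.5 (0.446). Esr1, like Prlr, was lowest in the members of cluster 2, at 17.2 CPM against 61.7 in those of cluster 14 and 105 in the 90 elsewhere.

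Of 20 peptide receptors compared, 3 were higher in AGRP nuclei (15%) and 8 lower (40%). The median log2 ratio of -0.96 was the lowest of the 18 functional lists. Npy2r, the autoreceptor of NPY neurons, stood at 113 CPM (103 to 124) against 29.3 (3.86-fold, interval 3.40 to 4.39) and was seen in 43.5% of AGRP nuclei against 11.1%. Crhr1, a receptor for corticotropin-releasing hormone, stood at 29.9 against 9.43 (3.17-fold) and Npffr1, a receptor for RFamide peptides, at 26.4 against 13.0 (2.03-fold, interval 1.59 to 2.56).

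Lower were the relaxin receptor Rxfp1 (0.205), the orexin receptor Hcrtr2 at 13.4 against 63.7 CPM (0.211), the opioid receptors Oprd1 (0.218) and Oprk1 (0.394), Trhr (0.277), Nmur2 (0.326), Crhr2 (0.336) and Tacr3 (0.381). The third opioid receptor, Oprm1, was at 86.5 against 92.4 CPM. Npy1r and Npy5r, the other Y receptors of the list, lay just inside the fold at 0.508 and 0.506, and without cluster 14 they were at 0.443 and 0.480.

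Among receptors for monoamines, acetylcholine, glutamate and GABA that act through G proteins, 2 of 19 were higher (10.5%) and 6 lower (31.6%), with a median log2 ratio of -0.47. Adra1a, an excitatory noradrenaline receptor, stood at 128 CPM (117 to 139) against 34.5 (3.70-fold) and the serotonin receptor Htr1b at 13.7 against 5.31 (2.58-fold). The other serotonin receptors that passed the fold were lower, Htr7 at 0.306, Htr4 at 0.422 and Htr2c at 61.4 against 145 CPM (0.423). Htr2c stood at 25.2 CPM in the members of cluster 2 and at 151 and 137 in those of cluster 14 and elsewhere. Grm4 (0.464) and Drd2 were also lower, but Grm4 had enough UMIs to be compared in 5 of 13 alternative settings and was lower in 3, with ratios from 0.195 to 2.04 over all 13. With cluster 14 left out Adra1b, Grm3 and Grm5 passed as well, which gave 9 lower.

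Of 39 transcription factors compared, 5 were higher (12.8%) and 18 lower (46.2%), with a median log2 ratio of -0.61. Otp (chromosome 13, 94875602 to 94885130, plus strand), a homeobox factor needed for several hypothalamic peptide neurons, stood at 66.2 CPM (58.4 to 74.7) against 15.7 (4.23-fold, interval 3.56 to 5.01). It was at 78.2 CPM in the members of cluster 2 and 29.0 in the 90 outside clusters 2 and 14. Prox1 stood at 89.8 against 30.7 (2.93-fold), the chromatin organizer Satb1 at 40.1 against 15.1 (2.65-fold), Zfpm2, a cofactor of GATA factors, at 182 against 74.9 (2.43-fold), and Zfhx3 at 1459.7 against 656 (2.22-fold).

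The 18 lower factors included Lhx1 (0.245), Nkx2-1 (0.249), Sox6 (0.249), Bcl11b (0.254) and Nfib (0.272). Nkx2-1, which patterns the basal hypothalamus in the embryo, gave 16 UMIs. Isl1 and Tbx3, which help to specify both AGRP and POMC neurons, were at 153 against 125 and 45.9 against 39.9 CPM. Bsx, a homeobox factor of AGRP neurons named after its values were seen, gave 24 UMIs, 6.09 against 2.93 CPM, too few to enter the comparison.

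**Figure D4:**
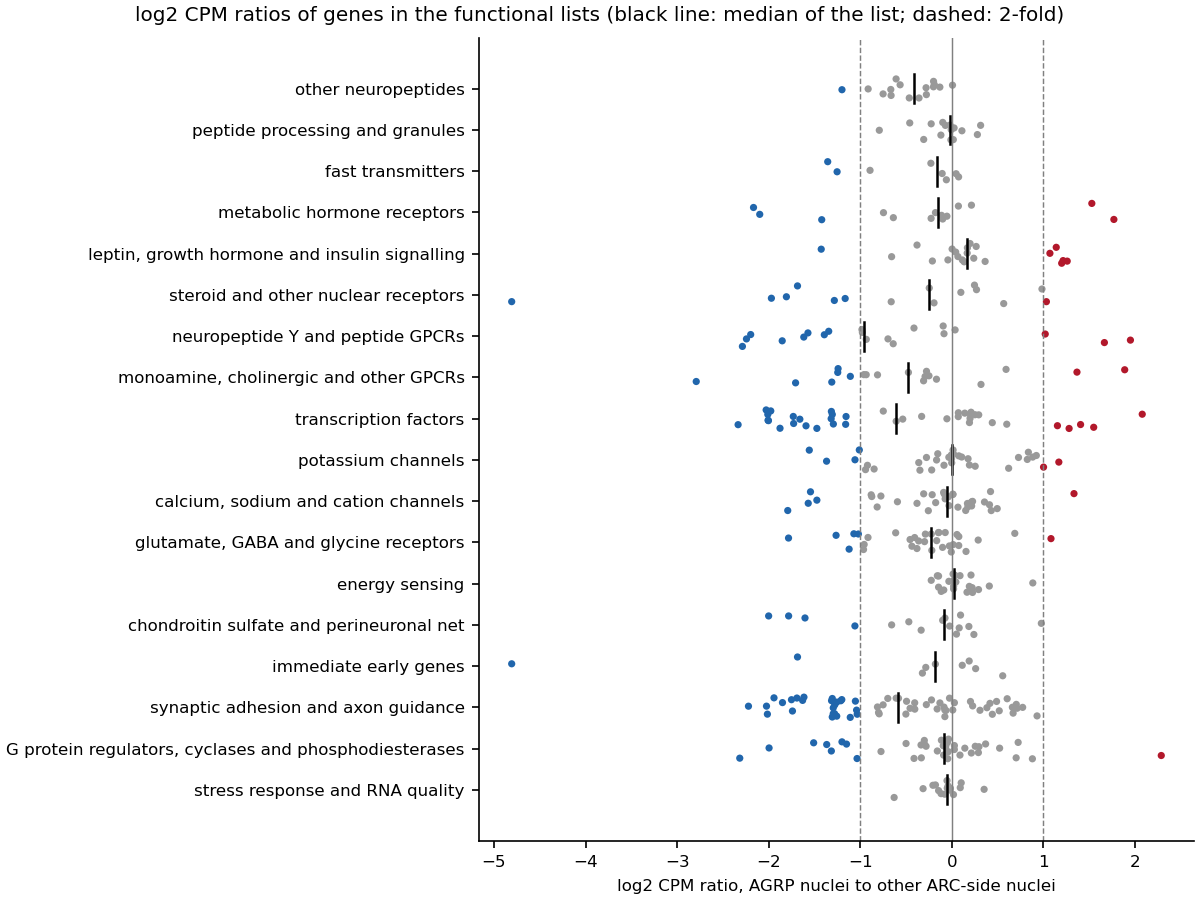
log2 of the CPM ratio of AGRP nuclei to the other ARC-side nuclei for the genes compared in each of 18 functional lists, with the list median as a black line and 2-fold as dashed lines. The peptide receptors have the lowest median, -0.96, and the leptin, growth hormone and insulin signalling genes the highest, 0.17.

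AGRP nuclei had the genes of GABA neurons at the level of the ARC as a whole. Gad1 and Gad2, which make GABA, were at 65.4 against 63.4 and 132 against 125 CPM, and the vesicular transporter Slc32a1 was at 32.5 against 38.1 (0.853, interval 0.701 to 1.03). The vesicular glutamate transporter Slc17a6 was at 20.3 against 51.9 CPM (0.391) and the acetylcholine enzyme Chat at 3.30 against 7.86 (0.419), and these were the 2 lower genes of 8 compared in the list of fast transmitters, whose median log2 ratio was -0.17. The 2 lower genes were 25% of that list. Members of cluster 2 had Slc32a1 at 38.4 and Slc17a6 at 12.4 CPM.

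Besides Agrp and Npy the peptide genes gave no higher member among 16 compared and 1 lower (6.25%), with a median log2 ratio of -0.41. The lower gene was the opioid precursor Pdyn at 3.04 against 6.99 CPM (0.435). Pomc was at 91.6 CPM (82.4 to 102) in AGRP nuclei, 173 in the other ARC-side nuclei and 114 on the PVH side, so its level in AGRP nuclei was under that of the PVH side. Oxt and Avp, made in the PVH and supraoptic nucleus, were at 510 against 583 and 268 against 326 CPM. Of 15 genes that process and store peptides none was past 2-fold in either direction, and the median was -0.02. Without cluster 14, 1 of them was lower. Pcsk1 and Pcsk2, the convertases that cut peptide precursors, were at 38.3 against 41.0 and 274 against 269.6 CPM.

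Of 34 potassium channel genes 2 were higher (5.88%) and 4 lower (11.8%), with a median log2 ratio of -0.0026. The leak channels Kcnk2, at 639.5 against 319 CPM (2.00-fold, interval 1.91 to 2.10), and Kcnk9, at 27.9 against 12.4 (2.25-fold), were higher. Kcnn2 (0.340), a calcium-activated channel, Kcnt2 (0.387), Kcnh5 (0.480) and Kcnh1 (0.496) were lower. Abcc8, a subunit of the ATP-sensitive channel, was at 29.4 against 29.5 CPM.

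Of 34 calcium, sodium and cation channel genes, Trpc4 alone was higher, at 136 against 53.8 CPM (2.52-fold), and Ano4 (0.289), the T-type calcium channel Cacna1g (0.337), Trpc5 at 94.4 against 275 (0.343) and Trpm3 at 82.4 against 229 (0.360) were lower. The related channels Trpc4 and Trpc5, both gated downstream of G proteins, thus differed in opposite directions. Higher genes were 2.94% and lower genes 11.8% of this list. Of 33 genes for glutamate, GABA and glycine receptors, the GABA receptor subunit Gabre was higher at 27.9 against 13.2 CPM (2.12-fold), and Grik3 (0.290), Gabra4 (0.416), Glra1 (0.459), Gabrb2 (0.476) and Glra3 (0.493) were lower. These were 3.03% higher and 15.2% lower of that list. Without cluster 14, Gria3, Grin3a and Grik1 also passed, at 0.480, 0.417 and 0.493, for 8 lower.

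Of 63 adhesion and guidance genes compared 25 were lower (39.7%) and none higher, with a median log2 ratio of -0.58. Without cluster 14, 25 were lower and 1 was higher. The netrin receptor Dcc stood at 199 against 764 CPM (0.260, interval 0.242 to 0.280) and was seen in 30.7% of AGRP nuclei against 72.7%. The cadherins Cdh8 (0.214), Cdh9 (0.246) and Cdh13 (0.299), the ephrin receptor Epha6 (0.247), the interleukin receptor relative Il1rapl2 (0.277) and the teneurin Tenm1 (0.297) were lower too. Pcdh9, Lsamp and Unc5d, abundant members of the same list, lay within 2-fold at 1.63, 1.17 and 1.71.

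In the list of G protein regulators, cyclases and phosphodiesterases, Rgs6 was the only higher gene of 39 (2.56%). There were 8 lower (20.5%), with a median log2 ratio of -0.09. Phosphodiesterases, which break down cyclic nucleotides, made up 4 of the lower set, with Pde4b at 101 against 505 CPM (0.201), Pde1a at 47.9 against 191 (0.251), Pde10a at 260.0 against 740.3 (0.351) and Pde7b (0.450). The others were the cyclase Adcy8 (0.388), Plcb1 (0.402), Prkg2 (0.435) and Rgs20 (0.488).

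In the remaining lists no gene was higher, except 1 chondroitin sulfate gene when cluster 14 was left out. The share lower was 25% for chondroitin sulfate genes and 22.2% for immediate early genes, against 3.95% of all genes compared. Of 22 energy sensing genes none was past 2-fold, with a median log2 ratio of 0.03. Of 16 chondroitin sulfate and perineuronal net genes beside the rule genes 4 were lower, Vcan (0.250), Chsy3 (0.291), Bcan (0.329) and Chst11 (0.480), and none higher, with a median of -0.09. Of 9 immediate early genes Nr4a1 (0.311) and Nr4a2 were lower, and Fos gave 8 UMIs. Of 16 stress and RNA quality genes none was past the fold, with Malat1 at 75882 against 74955 CPM and Meg3, a nuclear noncoding RNA, at 4584 against 7096 (0.646). Meg3 was at 3632 CPM in the members of cluster 2 and 7316 in the 90 outside clusters 2 and 14.

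POMC neurons, like AGRP neurons, are known to bear the leptin receptor, and clusters of this kind were compared for Lepr and the genes around it. The POMC-like cluster, called so from 4 of 5 markers, held 301 nuclei that were not members, with a median depth of 5354 UMIs. Its 13 members were counted with the AGRP nuclei, of which 516 of 672 lay in cluster 2. Lepr stood at 95.9 CPM in AGRP nuclei and 113 (97.2 to 129.9) in the POMC-like nuclei, a ratio of 0.851 (0.713 to 1.02), and Stat3 at 169 and 153, a ratio of 1.10 (0.955 to 1.28). Socs2 was at 99.2 and 87.2 (1.14, interval 0.939 to 1.39). For these 3 genes the intervals of the ratio held equal levels. Foxo1 was 5.09-fold (3.14 to 8.75) and Irs4 1.53-fold (1.12 to 2.11) higher in AGRP nuclei.

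Receptors set these classes apart. Calcr stood at 95.4 CPM in AGRP nuclei against 2.37 in POMC-like nuclei, Adra1a at 128 against 17.8, Crhr1 at 29.9 against 2.37 and Npy2r at 113 against 43.3, with ratios of 40.2 (15.6 to 148), 7.17 (4.96 to 10.7), 12.6 (4.80 to 47.1) and 2.61 (2.04 to 3.40). Otp was at 66.2 against 4.15 CPM. In the other direction Prlr was at 30.2 against 152, Oprm1 at 86.5 against 224, Hcrtr2 at 13.4 against 69.4 and Pomc at 91.6 against 792 CPM. AGRP and POMC-like nuclei thus differed in either direction for several receptors and by less than counting error for Lepr. In the members of cluster 2 alone Lepr stood at 117 CPM (104 to 130). The study reported a higher Lepr value in its AGRP cluster than in its POMC cluster, from its own clusters and normalization.

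The KNDy-like cluster, called so from 6 of 6 markers, held 251 nuclei that were not members, with a median depth of 4582 UMIs. Lepr was at 12.9 CPM there and AGRP nuclei stood 7.44-fold above it (4.52 to 13.2). Another cluster with Lepr, cluster 10, passed no list well enough to be named, and held 221 nuclei that were not members. Lepr stood at 89.6 CPM there, and the ratio of AGRP nuclei to it was 1.07 (0.854 to 1.35), while Adra1a was at 136 CPM (0.940, interval 0.780 to 1.14). Stat3, Npy2r, Foxo1 and Calcr were at 92.4, 46.2, 12.9 and 3.69 CPM, all under AGRP nuclei. In the KNDy-like nuclei Esr1 and Prlr, at 485 and 396 CPM, were far above the 38.1 and 30.2 of AGRP nuclei. Agrp was at 167 CPM in the POMC-like and 147 in the KNDy-like nuclei and Npy at 70.0 and 74.1, both at or under the level of the PVH side.

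**Figure D5:**
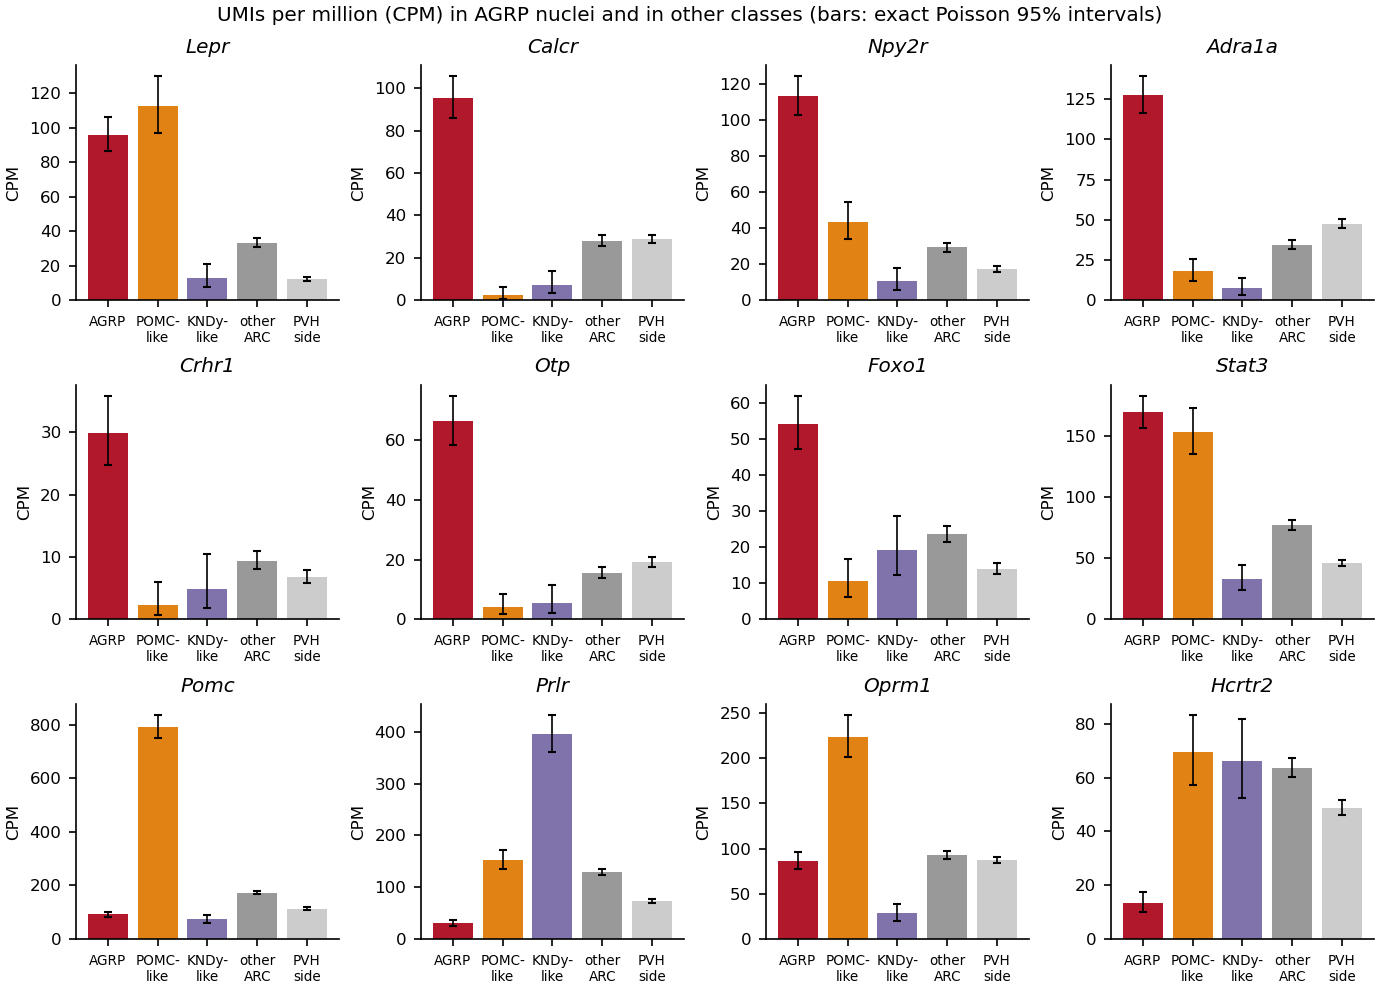
CPM (vertical axis, each panel from 0) of 12 genes in AGRP nuclei, POMC-like and KNDy-like nuclei, the other ARC-side nuclei and PVH-side nuclei with fewer than 4 rule genes, with exact Poisson 95% intervals as bars. Lepr and Stat3 lie at similar heights in AGRP and POMC-like nuclei, and Calcr, Npy2r, Adra1a, Crhr1, Otp and Foxo1 are highest in AGRP nuclei.

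How the AGRP nuclei varied among themselves was read from the variance of UMIs divided by the mean, after thinning the 671 nuclei with at least 2000 UMIs to that number. Counting alone gives a value near 1, and the median over 7253 genes was 1.03. Agrp and Npy were each at 1.12 and Lepr at 0.996. At so few UMIs per nucleus the measure did not show the differences between members of different clusters given above for Npy and Lepr. The highest values belonged to Malat1 (9.01), the potassium channel partner Kcnip4 (8.89), the adhesion gene Cntn5 (7.26), Il1rapl2 (5.68) and Gm32647 (4.99), followed by Gpc5, Nkain2, Meg3, Lingo2 and Tenm2 between 3.60 and 4.29. In the other ARC-side nuclei Malat1, Kcnip4, Cntn5, Il1rapl2 and Gm32647 were at 18.8, 11.6, 7.07, 5.71 and 5.90. High values of these genes were thus not particular to AGRP nuclei. Of the 15 most variable genes 13 were shared when cluster 14 was left out. Nuclei of different mice cannot be told apart within this spread.

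On the PVH side 188 nuclei, or 3.26%, held 4 or more rule genes. They had Agrp at 177 CPM (154 to 202), Npy at 141 (121 to 164) and Lepr at 33.7 (24.3 to 45.6), all under the AGRP nuclei of the ARC side. Sim1 stood at 112 CPM in them against 6.6 in the AGRP nuclei, and 27.1% were called doublets of both hashtags. Among the 142 with exactly 4 rule genes Npy was at 107 CPM (86.8 to 130) and Sim1 at 129. In the 24 with 5 and the 17 with 6, Npy was at 292 (212 to 392) and 211 (135 to 314), and Sim1 at 92.9 and 26.4. The low Npy of the whole group thus lay with the nuclei at the threshold. The hashtag condition, set beforehand, left all 188 out of the members.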

How the data were processed

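The authors deposited raw counts, whole-number UMIs per gene and barcode, for 1 pooled gene expression library of NeuN-sorted nuclei and for its hashtags, without normalization. The submitters' processing notes name Cell Ranger 5.0, Seurat 4 and mm10, and the matrix header names Cell Ranger 4.0.0. Filters on genes, UMIs and mitochondrial share followed the methods of the study, whose restriction to hashtag singlets was replaced by a hashtag ratio and tried as an alternative, so 50 HTODemux doublets and 29 negatives stand among the members. The members, the gene lists and the comparisons were chosen with earlier results of these data known. Genes were named as rule genes and markers, as the 20 highest and 12 lowest ratios, and as list members past 2-fold. The 3 most abundant of a list, the 15 most variable genes and 10 genes set in advance were named too. Some exceptions are said where they stand. Others, Jak2, Tbx3, Pcsk1 and Abcc8 among them, lay within 2-fold and met none of these criteria. CPM, intervals and thinning were computed in Python 3.11.15 (numpy 2.4.6, scipy 1.17.1, pandas 2.3.3, matplotlib 3.10.9), and ratios were tested on simulated data. Clustering ran in Seurat 5.3.0 (R 4.3.3, leidenbase 0.1.32; scale factor 10000, 2000 variable genes, 30 components, 20 neighbours, resolution 0.55), and HTODemux a quantile of 0.8. A cluster took a name from markers at least 1.5-fold above the other nuclei. Gene positions are from GENCODE M21, which held 32235 of the 32285 identifiers. Alternatives varied the rule, hashtag side, filters, depth, weights and comparison nuclei. With 1 library there was no test, and depth limits genes under about 20 expected UMIs.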

Additional observations from a re-analysis of the deposited data

How the results depend on the processing

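Of 80 alternative values 49 stayed close to those reported and 31 moved, and no ratio of Agrp, Npy or Lepr fell to 1 or under. Close meant within the interval of the reported value, or for gene counts within 1.5-fold of it, whichever genes were counted. With at least 3 rule genes, 137 of the 179 higher genes were among the 181 reported. The AGRP-like cluster, with 677 nuclei, was close in number but shared 516 with the members, and 451 of its 656 lower genes were among the 493. The count of AGRP nuclei was 1044 with at least 3 rule genes, 400 with at least 5, 94 with an ARC hashtag count at least 2 times the PVH count, 603 among HTODemux singlets, 860 without a hashtag condition and 488 at 4000 to 8000 UMIs. The Agrp ratio was 1.56 with 3 rule genes, 2.37 with the stricter hashtag, 1.59 without a hashtag condition and 1.92 for the AGRP-like cluster. In the same order the Npy ratio was 2.28, 3.86, 2.42 and 3.38, with 3.02 at 4000 to 8000 UMIs. The Lepr ratio was 2.44 with the stricter hashtag, 3.92 without the condition, 3.83 for the cluster and 3.45 against nuclei with at most 1 rule gene. Higher genes numbered 91 with the stricter hashtag, 388 at 5 expected UMIs and 1855 without a filter on low counts, and lower genes 256, 993 and 5027, with 272 at 3 rule genes. Both settings chosen after seeing the data concern clusters: without cluster 14 there were 606 AGRP nuclei, and within the AGRP-like cluster 516, with ratios of 1.97 (Agrp), 3.31 (Npy) and 3.51 (Lepr). No paired analysis was possible because there is 1 pooled sample, and no replicate could be left out. Rare genes are limited by depth: over 13 settings that kept the filter on low counts, Bcan was lower in 5, Chat and Prkcq in 6 and 4930500H12Rik higher in 6.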
